A study of Mus musculus with 4 samples.

Results

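The barcodes described here are pancreatic T-cell barcodes that carried no transcript of either coreceptor, Cd4 or Cd8, and carried several transcripts of genes shared with natural killer (NK) cells. They were found in the pancreas of pre-diabetic female mice by single-cell RNA sequencing of transcript 5-prime ends. A barcode stands for 1 droplet, and its unique molecular identifiers (UMIs) count captured transcripts. A barcode was a member when it had at least 500 genes detected, at most 10% mitochondrial UMIs, at least 1 UMI of Cd3e, Cd3d or Cd3g, and none of Cd4, Cd8a, Cd8b1, Trdc or Ncr1. It also needed at least 4 UMIs summed over Xcl1, Cxcr6, Ctsw, Cd7 and Il2rb. By this rule 224 of 10794 kept pancreatic barcodes were members, out of 21074 barcodes listed in the whole series. They are called double-negative (DN) barcodes below, after the rule and not after a cell type.

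The study compared mice with 2 floxed Ocab alleles (Ocabfl/fl, the control) with Ocabfl/fl.CD4Cre mice, in which Cre recombinase is driven by the Cd4 promoter. Ocab, also named Pou2af1, encodes a transcriptional coactivator of Oct1 and Oct2. Both groups carry the floxed alleles, and no wild-type group was analysed here. The Cd4 promoter is active in developing alpha-beta T cells of the thymus, so cells that later lack CD4 can descend from cells that expressed Cre. In each group, CD45+ leukocytes were flow-sorted from the pancreata of 4 mice aged 12 weeks and gave 1 library, and CD3 T cells were magnetically selected from pancreatic lymph nodes of 5 mice aged 8 weeks and gave another. With 1 library per genotype there is no replicate: intervals below are 95% intervals for counting error only, and no difference between genotypes was tested.

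Most T cells carry an alpha-beta receptor and either CD4 or CD8, which help the receptor bind peptide on MHC molecules. Innate-like T cells, among them natural killer T (NKT) cells, mucosal-associated invariant T cells and many gamma-delta T cells, often lack both coreceptors and respond quickly through shared or invariant receptors. Mouse NKT cells depend on the transcription factor PLZF, the product of Zbtb16, express the NK receptor genes of the Klrb1 family, and use a receptor alpha chain made from Trav11 and Traj18.

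The 2 segments of that invariant chain decide what these counts can say about NKT identity, so their sequences are given from the GENCODE M21 annotation of GRCm38, which has the coordinates of the mm10 build named for these files. Trav11 is a variable segment at chr14:53519303-53519859 and Traj18 a joining segment at chr14:54200777-54200842, both on the plus strand; the sequences are the annotated exonic bases, with the intron of Trav11 spliced out. Capitals in Trav11n, an annotated pseudogene copy at chr14:53135122-53135678, mark the 8 bases that differ from Trav11.
Trav11, first 300 bases: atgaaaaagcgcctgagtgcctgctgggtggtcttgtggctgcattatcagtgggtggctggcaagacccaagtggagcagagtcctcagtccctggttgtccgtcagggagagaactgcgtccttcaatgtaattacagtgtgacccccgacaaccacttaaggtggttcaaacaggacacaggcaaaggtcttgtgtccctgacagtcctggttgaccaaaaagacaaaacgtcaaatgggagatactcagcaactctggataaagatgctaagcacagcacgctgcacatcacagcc
Trav11n, first 300 bases: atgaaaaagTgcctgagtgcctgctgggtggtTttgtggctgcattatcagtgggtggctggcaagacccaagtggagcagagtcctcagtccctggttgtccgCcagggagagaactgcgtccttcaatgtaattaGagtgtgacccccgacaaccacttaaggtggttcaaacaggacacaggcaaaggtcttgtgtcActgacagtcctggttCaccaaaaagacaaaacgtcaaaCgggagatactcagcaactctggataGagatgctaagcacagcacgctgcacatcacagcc
Traj18: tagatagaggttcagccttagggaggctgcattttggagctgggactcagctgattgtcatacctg
Another copy, Trav11d at chr14:52824357-52824912, was identical to Trav11 over all 342 bases compared. More widely, 46 of 128 Trav segments in the count tables shared their first 300 bases exactly with at least 1 other segment. All 60 Traj segments and all 14 Trbj segments had 0 UMIs in the Cd3 barcodes of both pancreatic libraries, so Traj18 was unreadable in these tables, and a 0 there says nothing about the cells. Trav11 had 1, 2, 10 and 6 UMIs in the whole control pancreas, CD4-Cre pancreas, control lymph node and CD4-Cre lymph node libraries, and Trav11d and Trav11n had 0 in each.

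Each pancreatic library gave at least 20807342 UMIs. DN barcodes numbered 100 of 4168 kept barcodes in the control library, a share of 2.40% (interval 1.96 to 2.91), and 124 of 6626 in the CD4-Cre library, a share of 1.87%. The difference was -0.528 percentage points, with an interval of -1.12 to 0.0243 that included 0. As shares of barcodes with a Cd3 UMI, they were 3.82% and 2.68%, a difference of -1.14 points (-2.05 to -0.296). The difference was 0.119 points of kept barcodes (-0.563 to 0.763), with an interval that included 0, when every barcode was thinned to 2000 UMIs before the rule. Without barcodes that hold a UMI of a B or myeloid gene it was -1.40 points (-2.33 to -0.55). That step also took B and myeloid cells out of the total. It left 96 of 2490 kept barcodes in the control and 107 of 4361 in the CD4-Cre library, so this value has another denominator. Fewer DN cells and fewer transcripts per cell cannot be told apart in such a share. Median depth was 3635 UMIs per DN barcode in the control library and 3797.5 in the CD4-Cre library. The 2 pancreatic libraries shared 46 barcode sequences, none of them a DN barcode of both.

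The genes used by the rule were unevenly spread. Il2rb, the beta chain shared by the interleukin-2 and interleukin-15 receptors, had a UMI in 81 of 100 control and 97 of 124 CD4-Cre DN barcodes. Cxcr6, a receptor that guides T cells into tissue, had one in 63 and 78. Ctsw, a cathepsin of cytotoxic lymphocytes, had one in 61 and 84, and the surface receptor gene Cd7 in 52 and 75. Xcl1, a chemokine that attracts cross-presenting dendritic cells, was the least frequent, in 20 and 29. All 5 genes were found together in 9 control and 11 CD4-Cre barcodes, and only 1 of the 5 in 13 and 12. The 4 UMIs were therefore often reached on 2 or 3 genes. The sum ran from 4 to 70 in the control and to 66 in the CD4-Cre library, and 39 and 42 barcodes held at most 6.

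The barcodes just inside and just outside the threshold were few. Among otherwise eligible barcodes with a sum of 3, Nkg7, a granule gene, had a UMI in 56.3% of 16 control and 46.7% of 30 CD4-Cre barcodes. Among those with a sum of 4 it had one in 44.4% of 18 and 52.9% of 17. Ccl5, a chemokine of effector lymphocytes, moved from 37.5% to 61.1% in the control and from 26.7% to 29.4% in the CD4-Cre library across the same step.

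A coreceptor count of 0 depends on how deeply a barcode was read. Among barcodes that met every other condition of the rule (577 control, 848 CD4-Cre), 17.3% (14.3 to 20.7) and 14.6% (12.3 to 17.2) had no Cd4, Cd8a or Cd8b1 UMI. In the control library the share was 26.4%, 22.2%, 15.3% and 5.52% from the shallowest to the deepest quartile of UMIs per barcode. In the CD4-Cre library it was 18.9%, 22.2%, 10.4% and 7.08%. The deepest quartile was thus lowest in both libraries, below the interval of the shallowest (19.4 to 34.4 and 13.8 to 24.8). After thinning every barcode to 2000 UMIs first, 29.5% and 36.9% of such barcodes lacked a coreceptor UMI. Barcodes with an innate sum below 4 that met the other conditions (1646 control, 3184 CD4-Cre) lacked a coreceptor UMI more often, in 40.9% (38.6 to 43.4) and 28.8% (27.2 to 30.4), at lower median depths of 3289.5 and 3389 UMIs against 4380 and 4659.5. How many DN barcodes came from CD4 or CD8 cells whose coreceptor was not captured was not tested.

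**Figure D1:**
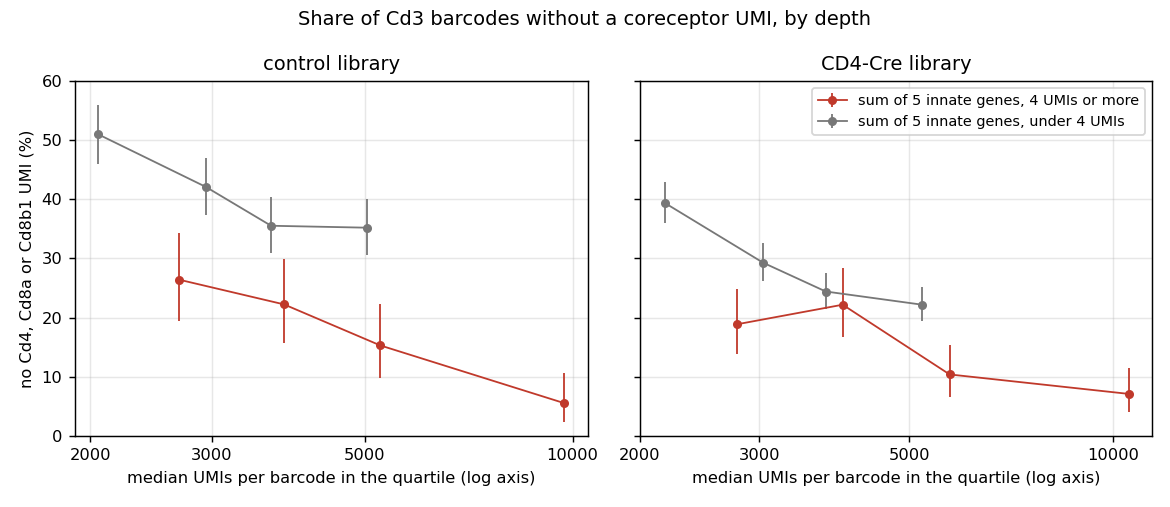
Share of Cd3 barcodes with no Cd4, Cd8a or Cd8b1 UMI (vertical axis, %) against the median UMIs per barcode in each depth quartile (log axis), with exact 95% binomial intervals; red points hold at least 4 UMIs of the 5 innate genes, grey points fewer. In the control library the red share goes from 26.4% in the shallowest quartile to 5.52% in the deepest, and in the CD4-Cre library from 18.9% to 7.08%.

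Genes that mark NKT cells were rare in DN barcodes. Zbtb16 (chr9:48654297-48836222, minus strand) had a UMI in 4 of 100 control and 7 of 124 CD4-Cre DN barcodes. Klrb1a (chr6:128609227-128623533, minus strand), an NK receptor gene, had one in 7 and 10. Klrb1c, which encodes the NK1.1 antigen in some strains, had one in 1 and 1, and Trav11 in 0 and 1. Transcripts shared with the identical copy Trav11d may not be counted, so a low Trav11 count says little about these cells. The Zbtb16 and Klrb1a shares stood above those of CD8 barcodes with at least 2 Ccl5 UMIs. There, Zbtb16 was found in 0% and 0.332% and Klrb1a in 1.29% and 0.997%. NK barcodes (Ncr1 and no Cd3 UMI) had Klrb1a in 75.5% and 80.8%.

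Taken as a group, a UMI of Zbtb16, Klrb1a or Trav11 was seen in 11 control DN barcodes (11%, interval 5.62 to 18.8) and 15 CD4-Cre DN barcodes (12.1%, 6.93 to 19.2). Thinned to 2000 UMIs, which left 94 and 119 barcodes, the shares were 7.45% (3.05 to 14.7) and 6.72% (2.95 to 12.8). The matching thinned shares were 0.355% and 0% in CD8 barcodes with Ccl5, 13.2% and 13.3% in gamma-delta barcodes (Cd3 and Trdc UMIs), and 67.0% and 67.1% in NK barcodes. B barcodes, which should lack these genes, gave 0.119% and 0.160% at median depths of 3562 and 3424 UMIs. The DN share lay above the B-cell background and the CD8 share, and its interval overlapped that of the gamma-delta barcodes (5.48 to 25.3 and 6.81 to 22.5).

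The 3 genes did not mark 1 set of DN barcodes. No control barcode held both Zbtb16 and Klrb1a, and 3 CD4-Cre barcodes did. Klrb1a was found with Fcer1g, the signalling adaptor of activating NK and Fc receptors, in 6 of 7 control and 9 of 10 CD4-Cre barcodes. Of the barcodes with Zbtb16, 2 of 4 and 6 of 7 held a UMI of a gamma or delta segment or of a gamma constant gene. The Zbtb16 barcodes of the control library carried Trbv1, Trbv13-1, Trbv29 or no Trbv UMI, 1 barcode each. With an alpha-beta constant-chain UMI required and gamma-delta segments excluded, the thinned share with any of the 3 genes was 5.56% (1.16 to 15.4) in the control library and 0% (0 to 6.72) in the CD4-Cre library. Trav1, the variable segment of the mucosal-associated invariant T receptor, had a UMI in 3 and 5 DN barcodes.

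**Figure D2:**
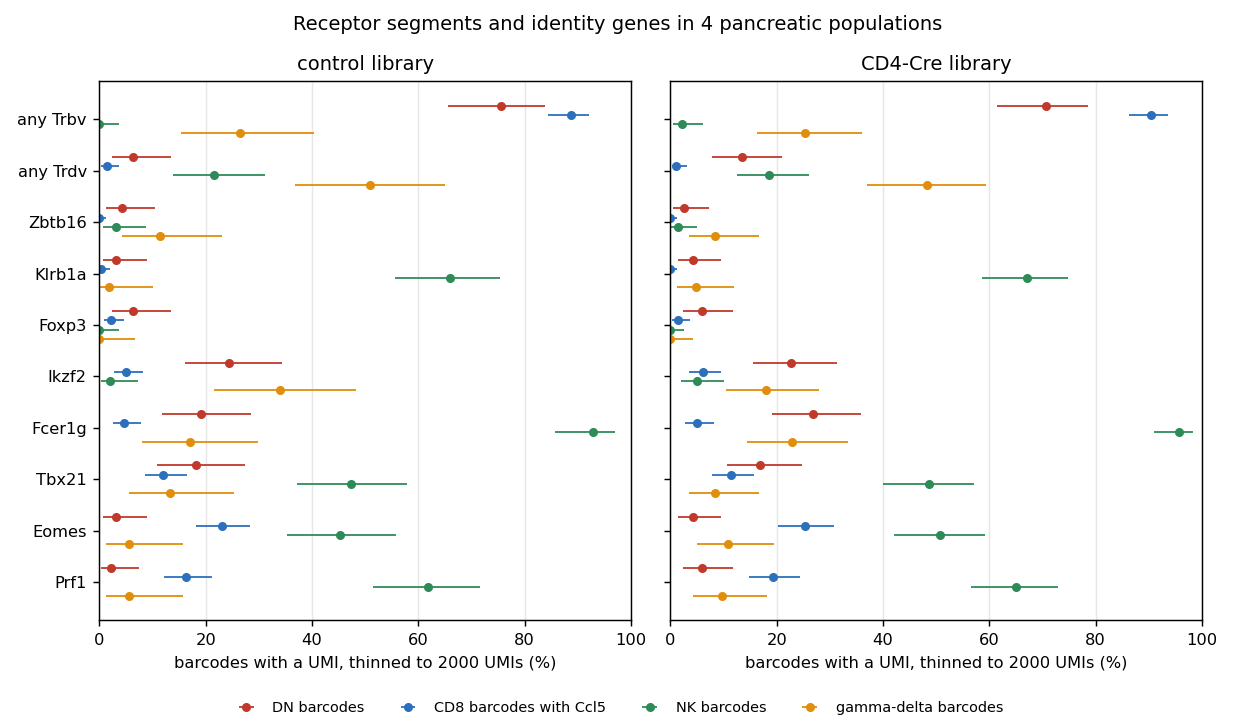
Share of barcodes with a UMI (horizontal axis, %, after thinning each barcode to 2000 UMIs) for receptor segments and identity genes, with exact 95% binomial intervals, in DN barcodes, CD8 barcodes with Ccl5, NK barcodes and gamma-delta barcodes of each pancreatic library. Klrb1a sits at 3.19% and 4.20% in DN barcodes against 66.0% and 67.1% in NK barcodes, while most DN barcodes hold a Trbv UMI.

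Receptor segments showed that most, but not all, DN barcodes carried beta-chain transcripts. A Trbv UMI was present in 80 of 100 control and 93 of 124 CD4-Cre DN barcodes, against 96.1% and 98.7% of CD8 barcodes with Ccl5, 0.943% and 3.85% of NK barcodes, and 1.44% and 1.66% of B barcodes. Trdv segments of the delta chain had a UMI in 8.0% and 16.1% of DN barcodes, although the rule had removed every barcode with a Trdc UMI. The share was 34.9% and 35.3% in NK barcodes and 50% and 58.1% in gamma-delta barcodes, so a Trdv UMI alone did not separate these types. Trgv segments of the gamma chain had one in 31% and 41.1% of DN barcodes and in 49.8% and 40.9% of CD8 barcodes with Ccl5. Of the DN barcodes with no Trbv UMI (20 and 31), 11 and 24 held a Trgv or Trdv UMI. Only 2 and 1 DN barcodes had no receptor segment or constant-chain UMI of any kind.

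Among DN barcodes with a Trbv UMI, no segment held a majority. Trbv13-2, the beta segment most used by NKT cells, ranked first in both libraries, leading in 14 of 80 control barcodes (17.5%, interval 9.91 to 27.6) and 16 of 93 CD4-Cre barcodes (17.2%, 10.2 to 26.4). In CD8 barcodes with Ccl5 it led in 28 and 34 of 297 in each library (9.43% and 11.4%), intervals of 6.36 to 13.3 and 8.06 to 15.6 that overlap those of the DN barcodes. In CD4 barcodes with an innate sum of at least 4 it led in 10.1% and 17.0%, the latter next to the DN share of the same library. Trbv1 followed in the control library with 13 of 80. In all, 19 and 20 different Trbv segments were seen. CD8 barcodes with Ccl5 were led by Trbv13-3 in the control library (20.9%) and by Trbv15 in the CD4-Cre library (23.9%).

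DN barcodes with and without a Trbv UMI differed in genes that the rule did not use. Those with Trbv and no Trdv numbered 78 and 83. Foxp3, the regulator of regulatory T cells, had a UMI in 9 and 10 of these (11.5% and 12.0%) and in 0 of 20 and 0 of 31 without Trbv. Ctla4, an inhibitory receptor high in regulatory T cells, was found in 23.1% and 24.1% against 0 and 0. Cd5, a brake on alpha-beta receptor signalling, was found in 48.7% and 48.2% against 5.0% and 12.9%. In the other direction, Il7r, the interleukin-7 receptor, was found in 44.9% and 60.2% with Trbv and in 80.0% and 74.2% without. Tmem176b, a gene of type 3 lymphocytes, was found in 3.85% and 20.5% with Trbv and 60% and 25.8% without. These shares include barcodes with a B or myeloid UMI, and without those the CD4-Cre Tmem176b UMIs fell from 168 to 91. Both libraries gave the same direction for these genes. Their 95% intervals did not overlap for Cd5 in either library, for Ctla4 in the CD4-Cre library or for Tmem176b in the control library, and overlapped for Foxp3 and Il7r in both.

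Foxp3 barcodes entered the gate mostly on Il2rb. In all 9 control and 7 of 10 CD4-Cre Foxp3 barcodes, Il2rb held at least as many UMIs as the other 4 rule genes together. Ikzf2, which encodes the regulatory T and innate-like T factor Helios, was also present in 8 of these 9 and 9 of these 10.

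The nearest neighbours of DN barcodes were of many classes. For each T or NK barcode the 15 most similar barcodes of the same library were found without the rule genes, receptor genes or mitochondrial genes. DN barcodes made up 13.9% of the neighbours of control DN barcodes and 11.6% in the CD4-Cre library, against 3.67% and 2.60% of all T and NK barcodes. CD4 barcodes with an innate sum of at least 4 were 19.3% and 15.4% of the neighbours. Of all T and NK barcodes they were 5.65% and 5.93%. On the same measures, barcodes with Cd3 and Ncr1 were 15.1% and 16.0% against 10.8% and 9.59%. CD8 barcodes with Ccl5 were 15.3% and 9.95% against 11.3% and 6.30%. Gamma-delta barcodes were 7.6% and 7.96% against 2.35% and 1.80%. Other CD4 barcodes were 12.2% and 17.2% of the neighbours and 28.9% and 39.4% of all T and NK barcodes. NK barcodes, which by definition hold no Cd3 UMI, gave 0.867% and 0.645%. Barcodes with Cd3 and Ncr1 were themselves 56.9% and 48.8% of the neighbours of NK barcodes. They were the majority of neighbours for 15 control and 17 CD4-Cre DN barcodes. The low share of NK barcodes therefore does not count all NK-like neighbours. None of the 100 and none of the 124 DN barcodes had other DN barcodes as the majority of its neighbours, and 23 and 38 had none. CD8 barcodes with Ccl5 had a majority of their own class in 217 of 309 and 192 of 301. DN barcodes were thus more frequent among their own neighbours than among all T and NK barcodes, but for no DN barcode as the majority. This was not particular to them, since DN barcodes were also 14.1% and 13.3% of the neighbours of gamma-delta barcodes.

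**Figure D3:**
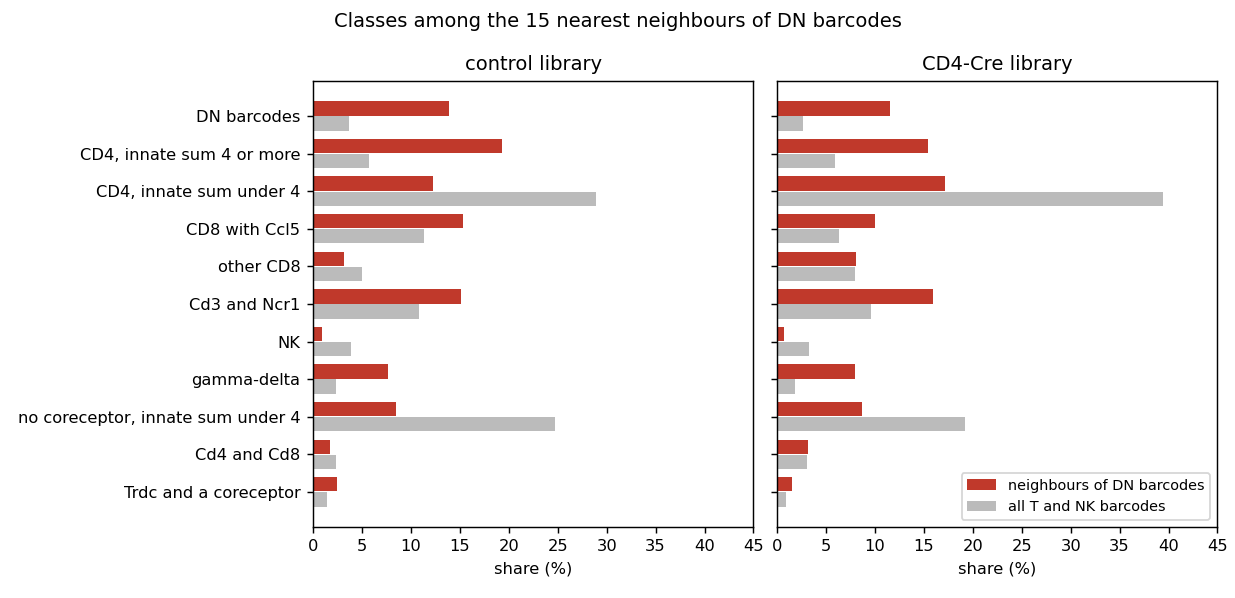
Classes among the 15 nearest neighbours of DN barcodes (red bars, % of neighbours) and among all T and NK barcodes (grey bars, % of barcodes) in each pancreatic library. DN barcodes are 13.9% and 11.6% of the neighbours, and CD4 barcodes with an innate sum of at least 4 are 19.3% and 15.4%. Barcodes with Cd3 and Ncr1 are 15.1% and 16.0%, and NK barcodes, with Ncr1 and no Cd3 UMI, are under 1% in both.

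Against CD8 barcodes with at least 2 Ccl5 UMIs (309 control, 301 CD4-Cre), a chemokine transcript of effector and memory CD8 cells, DN barcodes had less cytotoxic and proliferation RNA. They had more RNA of the type 3 and regulatory T-cell lists and of Gata3, a type 2 gene. Of 7568 genes tested, those with at least 20 UMIs, 96 (1.27%) were over 2-fold higher in both libraries and 145 (1.92%) over 2-fold lower. Levels are summed UMIs per 1000000 UMIs of the population (CPM). Because Cd8a, Ccl5 and the innate genes defined the groups, all differences here are descriptions without a test.

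Cytotoxic genes were lower in DN barcodes for 13 of 15 list members measured in the control library and 12 of 15 in the CD4-Cre library, where the median log2 ratios were -0.80 and -0.98 beside medians of 0.06 and 0.02 over all genes. Prf1, the pore-forming protein perforin, had a UMI in 9.0% and 10.5% of DN barcodes against 31.4% and 32.9%, with log2 ratios of -1.37 (-2.31 to -0.54) and -1.36 (-2.14 to -0.67). Nkg7 stood at 1044 and 854 CPM in DN barcodes against 2850 and 2626 CPM. Gzmk, a granzyme of memory-like CD8 cells, had log2 ratios of -2.57 (-3.16 to -2.03) and -4.46 (-5.33 to -3.70). The 2 libraries gave the same direction for all 3 genes.

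Eomes, a T-box factor of memory CD8 and NK cells, had a UMI in 5.0% and 11.3% of DN barcodes against 39.2% and 39.9% of CD8 barcodes with Ccl5. Tbx21, the related factor T-bet, did not show this gap, with 29.0% and 30.6% against 23.0% and 24.6%. The inhibitory receptors Pdcd1 and Lag3 were lower: Pdcd1 had log2 ratios of -1.60 (-2.25 to -1.01) and -3.09 (-3.89 to -2.40), and Lag3 of -0.73 (-1.19 to -0.29) and -1.39 (-1.83 to -0.97).

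Proliferation genes were lower for 12 of 12 list members in both libraries, with medians of -3.36 and -3.44. The DN rule passed fewest of the deepest barcodes, whereas the CD8 barcodes needed a Cd8 UMI. The upper quartile of UMIs per barcode was 4500.25 and 4812.5 in DN barcodes against 6132 and 6641 in these CD8 barcodes. The part of this selection in the proliferation ratios was not tested. Stmn1 regulates microtubules and is high in dividing cells. Its UMIs numbered 7 (control) and 13 (CD4-Cre) in DN barcodes against 326 in the CD8 barcodes of each library, log2 ratios of -3.54 (-4.87 to -2.48) and -3.13 (-4.06 to -2.34). Birc5, the mitotic protein survivin, had 0 UMIs in DN barcodes of both libraries and 112 and 111 in CD8 barcodes, so that with a floor of 3 UMIs over the group the ratio was at most -3.22 and -3.69 on the log2 scale. Pclaf, Ube2c, Hist1h2ap, Ccnb2, Tk1 and Rrm2, all genes of DNA replication or mitosis, were also among the 10 lowest by the naming rule, joined by 2900026A02Rik and by Jchain. Jchain, an antibody-joining gene of plasma cells, was counted 2 and 3 times in DN barcodes and 1564 and 2390 times in CD8 barcodes. Its log2 ratio of -7.61 and -8.12 turned to 1.62 (-2.17 to 5.41) and 1.38 (-1.39 to 3.95) once barcodes with B or myeloid UMIs were left out of both groups, with intervals that include 0.

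The 10 genes that stood highest included Maf (chr8:115682942-115707794, minus strand), a factor of regulatory, type 3 and gamma-delta T cells. Maf had 67 UMIs in 26 control DN barcodes and 49 in 26 CD4-Cre DN barcodes, against 16 and 12 in the CD8 barcodes, with log2 ratios of 4.07 (3.26 to 4.95) and 3.55 (2.61 to 4.59). Ltb4r1, the leukotriene B4 receptor, had 28 and 59 UMIs against 12 and 11, log2 ratios of 3.22 and 3.94. Without barcodes with a B or myeloid UMI, Ltb4r1 had 28 UMIs in each library, and Maf 64 and 45. Cd40lg, the CD40 ligand made mainly by CD4 cells, had 2.56 (1.61 to 3.54) and 5.38 (4.10 to 7.05). Izumo1r, a folate receptor of regulatory and follicular CD4 cells, was outside that list but also higher, at 1.51 (1.05 to 1.96) and 2.29 (1.81 to 2.78), and so was Zbtb7b, the CD4-lineage factor ThPOK, at 2.0 (0.87 to 3.13) and 2.92 (1.87 to 4.06). These last 2 were chosen after their values were seen.

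Regulatory T-cell genes were higher for 6 of 6 list members in both libraries, with median log2 ratios of 2.15 and 1.92. Tnfrsf4, the costimulatory receptor OX40, stood at 239 and 245 CPM in DN barcodes against 52.3 and 39.7 CPM. Il2ra, the interleukin-2 receptor alpha chain, gave 2.11 (1.28 to 2.93) and 2.14 (1.42 to 2.88), and Ikzf2 gave 2.39 (1.96 to 2.82) and 2.05 (1.60 to 2.50). Ikzf2 had a UMI in 36 and 44 DN barcodes, well beyond the 9 and 10 with Foxp3.

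Type 3 genes were higher for 7 of 7 measured list members in both libraries, with medians of 1.77 and 1.71. Tmem176b had 122 and 168 UMIs against 143 and 105, log2 ratios of 1.77 (1.41 to 2.13) and 2.19 (1.83 to 2.56). Il17a, the cytokine interleukin-17A, had a UMI in 0 control and 1 CD4-Cre DN barcodes. Cd163l1 (chr7:140218267-140231145, plus strand), a scavenger receptor of interleukin-17-producing gamma-delta cells, ranked first by the naming rule, with log2 ratios of 5.22 (3.53 to 7.58) and 4.74 (3.04 to 7.10), but its 28 UMIs in each library came from 4 and 5 barcodes. The control barcode with the most held 11 Cd163l1, 11 Trdv and 0 Trbv UMIs, and the CD4-Cre one 11, 9 and 0. Against gamma-delta barcodes Cd163l1 was lower in DN barcodes, at -3.17 (-3.81 to -2.58) and -2.46 (-3.11 to -1.85). The remaining highest genes were Klra5, an NK receptor, Podnl1 and Tmem64.

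**Figure D4:**
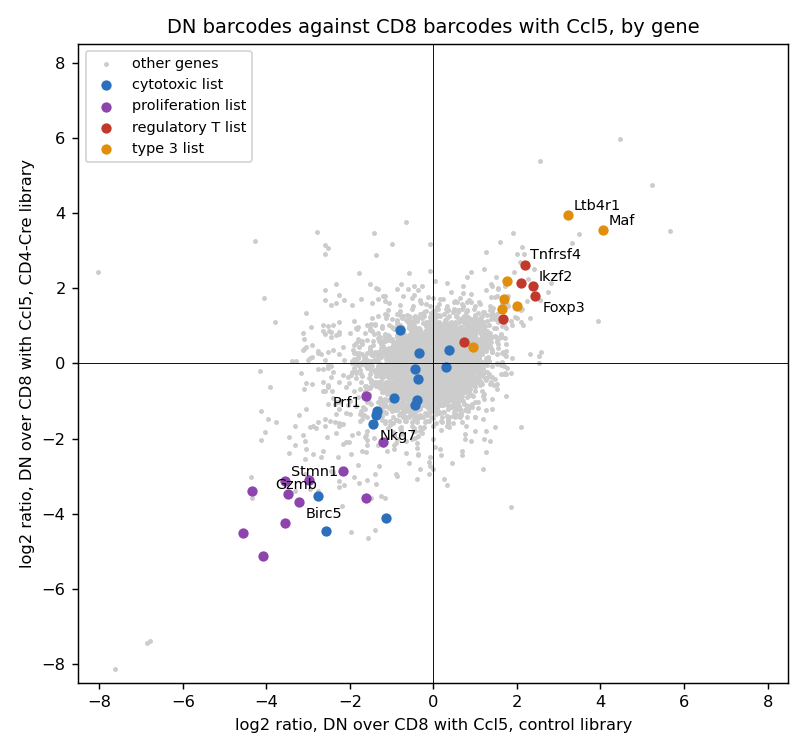
Log2 ratio of CPM, DN barcodes over CD8 barcodes with Ccl5, in the control library (horizontal axis) and the CD4-Cre library (vertical axis); each point is 1 gene, coloured by list. Proliferation genes lie at the lower left, with Stmn1 at -3.54 and -3.13, and all type 3 and regulatory T genes shown lie at the upper right, with Maf at 4.07 and 3.55.

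Early-response genes that rise during tissue dissociation moved with these differences. Summed over the 13-gene list, their log2 ratio in DN barcodes over CD8 barcodes was 0.63 (0.56 to 0.70) in the control library and 0.82 (0.76 to 0.89) in the CD4-Cre library, and 10 and 11 of 11 measured genes were higher. Their part in the other differences was not tested.

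Genes of the type 1 and type 2 programmes were also counted. Type 1 genes differed little from CD8 barcodes, with summed log2 ratios of 0.04 (-0.08 to 0.16) and 0.04 (-0.06 to 0.14). Ifng, the type 1 cytokine interferon gamma, had a UMI in 21% and 18.5% of DN barcodes. Gata3, the factor of type 2 lymphocytes, was higher, at 1.87 (1.37 to 2.38) and 1.02 (0.54 to 1.5). In the control library 7 of its 66 UMIs lay in 1 barcode, which also held all 26 Il5 UMIs and no Cd3e, Cd3d or Trbv UMI. Il4 and Il13, the type 2 cytokines, had 0 UMIs each in control and 2 and 0 in CD4-Cre DN barcodes. The exact interval of the share for Il13, at 0 of 100 control barcodes, reaches 3.62%.

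CD4 barcodes with the same innate sum of at least 4 (154 control, 283 CD4-Cre), which are frequent neighbours of DN barcodes, gave smaller differences for several of these genes. Ikzf2 had log2 ratios of 0.27 (-0.08 to 0.61) and -0.25 (-0.58 to 0.07) in DN over these CD4 barcodes, and Nkg7 of 0.22 (0.05 to 0.39) and 0.0 (-0.14 to 0.15). Foxp3 was lower in DN barcodes, at -0.86 (-1.47 to -0.29) and -1.0 (-1.63 to -0.42), as was Lag3, at -1.62 (-2.08 to -1.19) and -2.14 (-2.58 to -1.73). Klrd1, an NK receptor subunit also known as CD94, was higher, at 2.45 (1.79 to 3.14) and 1.84 (1.35 to 2.33). Against gamma-delta barcodes, the type 3 list was lower in DN barcodes, with summed log2 ratios of -1.18 (-1.37 to -0.99) and -0.72 (-0.91 to -0.54), and Ctla4 was higher, at 4.72 (2.82 to 7.78) and 4.38 (2.79 to 6.69).

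Against NK barcodes (106 control, 156 CD4-Cre), DN barcodes kept T-cell genes and held little of the NK programme. Of 5269 genes tested, 126 (2.39%) were over 2-fold higher in both libraries and 150 (2.85%) over 2-fold lower. The NK list was lower for 13 of 13 and 12 of 13 members, with a summed log2 ratio of -3.59 in each library (-3.72 to -3.47 and -3.69 to -3.50). Fcer1g, which was lower with it, still had a UMI in 21 and 35 DN barcodes (21.0% and 28.2%) against 7.12% and 6.98% of CD8 barcodes with Ccl5 and 97.2% and 97.4% of NK barcodes. The shares with Fcer1g placed DN barcodes between these types. Without barcodes with a B or myeloid UMI, 20 of 96 control and 24 of 107 CD4-Cre DN barcodes held Fcer1g.

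Killing genes were far below NK levels. Gzmb, granzyme B, stood at 29.9 and 9.73 CPM in DN barcodes against 509 and 476 CPM, log2 ratios of -4.09 (-5.06 to -3.26) and -5.61 (-7.07 to -4.47). Prf1 gave -4.39 (-5.31 to -3.59) and -4.72 (-5.46 to -4.06). Klrb1c gave -5.83 (-8.89 to -3.94) and -7.62 (-12.9 to -5.12). Cma1, Klra4, Klri2, Klra8, Itgax, Gzma and Sulf2 completed the 10 lowest genes, 3 of which are NK receptors of the Ly49 or Klri families.

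On the higher side, Cd5 and Cd6, paired modulators of receptor signalling, had 97 and 96 and 55 and 73 UMIs in DN barcodes and 0 in NK barcodes. With a floor of 3 UMIs their log2 ratios were at least 5.17 and 5.04 for Cd5, and at least 4.35 and 4.64 for Cd6. Tnfrsf4 gave 5.74 (3.84 to 8.80) and 5.69 (4.11 to 7.98), and Icos, a costimulatory receptor of CD4 and innate-like T cells, 3.72 (2.52 to 5.21) and 3.60 (2.50 to 4.96). Ctla4, Sit1, Izumo1r, Ass1, Ifi27l2a and Itgae were the others. The T-cell signalling list was higher for 13 of 13 measured genes in the control and 11 of 12 in the CD4-Cre library, at summed log2 ratios of 1.21 (1.08 to 1.34) and 0.60 (0.49 to 0.71).

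Ocab itself (Pou2af1, chr9:51213708-51240080, plus strand) could not be checked in DN barcodes. It had 1 UMI in the control and 5 in the CD4-Cre DN barcodes (2.49 and 8.11 CPM), and 0 in both once barcodes with B or myeloid UMIs were left out. In CD8 barcodes with Ccl5 it had 27 and 13 UMIs. B barcodes, where the Cd4 promoter should not drive Cre, held it at 219 and 240 CPM, with a UMI in 51.4% in each library. A 5-prime count of this gene also cannot be tied here to the deleted part, since the floxed exons are not given in the sources used.

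The comparison of the CD4-Cre with the control library in DN barcodes was dominated by transcripts of other lineages. Of 5978 genes tested, 219 (3.66%) were over 2-fold higher with an interval off 0, and 130 (2.17%) were lower. The 10 highest by the naming rule were Lyz2, Retnla, Ccl6, Lyz1, Ccl9, Fn1, Apoe, Pld4, S100a9 and Pltp, all known from macrophages, monocytes or neutrophils. Lyz2, lysozyme, had 1 UMI in 1 control DN barcode and 1670 UMIs in 11 CD4-Cre DN barcodes. The myeloid list summed to 341 CPM in the control, where 7 of its 10 genes were at 0 (Csf1r, C1qa, C1qb, Itgam, Adgre1, S100a8 and S100a9), and to 5452 CPM in the CD4-Cre library, where none was. The B-cell list summed to 1865 CPM, with Pax5 at 0, and to 9510 CPM, with none of its 8 genes at 0.

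A few barcodes held those transcripts. A UMI of Lyz2, C1qa, Csf1r, Cd79a or Ms4a1 was present in 4 of 100 control and 17 of 124 CD4-Cre DN barcodes. The 17 held 33.0% of all DN UMIs in their library, at a median of 11013 UMIs each against 3628 in the rest. Such a UMI was found in 15.86% (control) and 10.96% (CD4-Cre) of CD8 barcodes with Ccl5. The shares were 8.49% and 10.26% in NK barcodes, and 18.75% and 15.12% in gamma-delta barcodes. The CD4-Cre DN share of 13.71% lay among those of these types. The control DN share of 4% (interval 1.10 to 9.93) lay below them, though its interval reached the NK share. Scores from simulated doublets marked the highest 3.63% of the control and 5.57% of the CD4-Cre library, the share expected to be doublets. These included 1 control and 8 CD4-Cre DN barcodes, 1% and 6.45% of them. Without the 4 and 17 barcodes, 77 of 5147 genes (1.5%) were higher and 91 (1.77%) lower, the myeloid list ratio went from 4.00 to -0.20 on the log2 scale, and the B list ratio from 2.35 to -1.74. Of the 519 B list UMIs that then remained in control DN barcodes, 280 lay in 1 barcode. Without it, in an alternative chosen after the data were seen, the B list ratio was -0.64 (-0.94 to -0.35). For the comparisons within each library the same step gave 101 (1.49%) higher and 122 (1.8%) lower of 6785 genes against CD8 barcodes, and 137 (2.83%) higher and 170 (3.52%) lower of 4833 genes against NK barcodes.

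In the remaining 96 and 107 DN barcodes, several lists that described these cells had ratios near 0 between the genotypes. Cytotoxic genes gave a summed log2 ratio of -0.16 (-0.26 to -0.05), with 6 higher and 7 lower of 13, and -0.28 (-0.38 to -0.18) with all barcodes. Regulatory T genes gave 0.06 (-0.13 to 0.24), T-cell signalling genes -0.14 (-0.24 to -0.03) and type 1 genes 0.09 (-0.06 to 0.23). Larger ratios were seen for type 3 genes, -0.51 (-0.73 to -0.28) with 0 higher and 6 lower of 6, and for the terminal effector list, -0.83 (-0.94 to -0.72) with 2 higher and 7 lower of 9. Of the type 3 genes, Tmem176b had 122 control UMIs in 15 barcodes, 30.3% of them in 1 barcode, and 91 CD4-Cre UMIs in 19. Of these 122, 113 lay in control barcodes with no Trbv UMI. Maf was more widely spread, with 64 UMIs in 24 control and 45 in 23 CD4-Cre barcodes. Chemokine ligand genes gave 2.57 (1.98 to 3.21), on 2 measured genes, Ccl3 and Ccl4, whose UMIs lay mostly in 1 CD4-Cre barcode. Of the terminal effector genes, S100a4 had 155 control and 64 CD4-Cre UMIs, at -1.38 (-1.82 to -0.95), and S100a6 760 and 481, at -0.76 (-0.93 to -0.59); both are calcium-binding proteins of antigen-experienced T cells. The median over all genes tested was -0.01. With 1 library per genotype none of these can be set against the spread between mice.

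**Figure D5:**
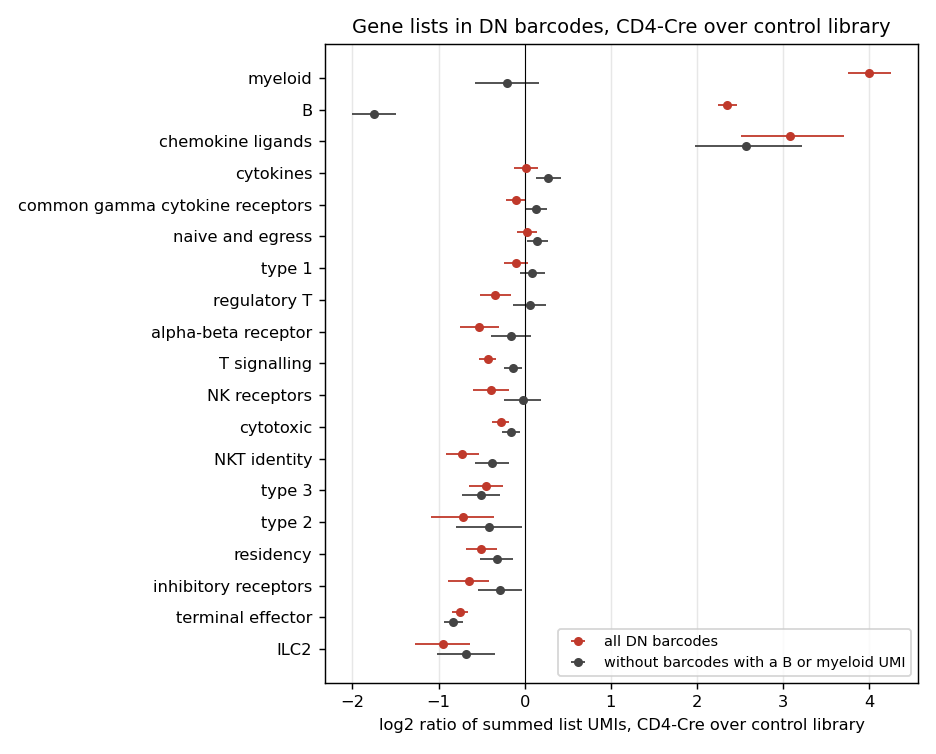
Log2 ratio of summed list CPM in DN barcodes, CD4-Cre over control library (horizontal axis), with exact 95% counting intervals, for all DN barcodes (red) and without barcodes that hold a B or myeloid UMI (dark grey). The myeloid list moves from 4.00 to -0.20 and the B list from 2.35 to -1.74, while the terminal effector list stays at -0.76 and -0.83.

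Several of the strongest single genes came from 1 barcode. Among genes lower in the CD4-Cre library, Il5 had 26 UMIs in the control, all in 1 barcode. That barcode also held 51 of the 53 Csf2 UMIs and 14 of the 22 Arg1 UMIs, with 7 Gata3 UMIs, genes that group 2 innate lymphoid cells and type 2 T cells express. Its Cd3 call rested on 8 Cd3g UMIs, with 0 Cd3e, Cd3d, Trac, Trbc2 and Trbv UMIs. Only 5 control and 5 CD4-Cre DN barcodes had Cd3g without Cd3e or Cd3d. Gzma, granzyme A, went from 184 UMIs (458 CPM) to 14 (22.7 CPM), and 144 of the 184 lay in 1 control barcode, without which the control level was 100.6 CPM. In the CD4-Cre library 10 of the 14 lay in 1 barcode, without which the level was 6.52 CPM. In CD8 barcodes with Ccl5 Gzma also was lower in the CD4-Cre library, at -1.35 (-1.48 to -1.22), and in NK barcodes it was -0.003 (-0.062 to 0.057).

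On the higher side, 1 CD4-Cre barcode held 22 of 22 Ccl3, 116 of 173 Ccl4, 28 of 31 Il2 and 17 Cd40lg UMIs, a set of chemokine, growth factor and ligand genes that activated T cells express. It had 7 Trbv UMIs. Other genes were spread over more barcodes. Among these, with the B and myeloid barcodes left out, Tgtp1, an interferon-inducible GTPase, was counted 4 times over 4 control barcodes and 24 times over 18 CD4-Cre barcodes, at 2.49 (0.94 to 4.47), and Med13, a subunit of the Mediator complex, 22 times over 21 and 4 times over 4, at -2.56 (-4.56 to -1.0). In that set Rhob, Egr2, Zfp512, 1810013L24Rik, Ccdc86 and Ltn1 were the others of the 10 highest, and Ccnd1, H2-DMb2, Marcksl1, Tnk2 and Ccdc69 were among the 10 lowest. Several of these rested on few barcodes: 1 control barcode held 63.0% of the Ccnd1, 55.6% of the H2-DMb2 and 50% of the Marcksl1 UMIs, and 1 CD4-Cre barcode held 58.3% of the Rhob UMIs, while the control UMIs of Tnk2 and of Ccdc69 lay in 21 barcodes each. Klrg1, Klra5, Runx2 and Dtx3 were among the 10 lowest with all barcodes. This second naming of genes was added after the values were seen.

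Other tissue transcripts were low. The exocrine pancreas list summed to 44.8 and 182 CPM and the plasma-cell list to 112 and 149 CPM in DN barcodes. Islet hormone genes gave 29 UMIs in the control, 26 of them in 1 barcode, and 1 UMI in the CD4-Cre library. Their part in the results was not tested.

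The same rule found 59 and 76 barcodes in the control and CD4-Cre lymph node libraries. Foxp3 had a UMI in 42.4% and 44.7% of them, Zbtb16 in 5.08% and 7.89%, and Trav11 in 2 barcodes of each. Tissue, age and the way cells were selected differ together between these libraries and the pancreas, so the values are given without a comparison.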

How the data were processed

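The 4 libraries of raw UMI counts per gene and barcode, as deposited by the authors, were used: per the submitters' processing notes they were made with Cell Ranger on mm10, and per the file headers with matrix software version 3.0.0. The members, lists and tests were chosen with earlier results of these data known. Barcodes needed at least 500 genes and at most 10% mitochondrial UMIs. UMIs were summed per population and library and given per 1000000 UMIs (CPM). Shares have exact Clopper-Pearson intervals, levels exact Poisson intervals, ratios exact conditional intervals and differences of shares Newcombe intervals, all at 95% and for counting error only. Since 1 library stands for each genotype, no p-value is given.

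Genes needed 20 UMIs summed over the 2 sides of a comparison, in each library where both libraries were used. A gene was called when over 2-fold in both libraries, or, between genotypes, over 2-fold with an interval off 0. A zero was set to a floor of 3 UMIs over the group. Named genes were the 10 highest and 10 lowest, ranked by the ratio nearer 0 of the 2 libraries, with at least 50 UMIs on the higher side and intervals off 0 in both; between genotypes at least 20 UMIs and an interval off 0 were required. Rule, receptor and mitochondrial genes were left out of the naming, which also covered the NKT, type 1, type 2, type 3 and NK lists and the leading genes of other lists. For shares, each barcode was thinned to 2000 UMIs. Neighbours used 2000 variable genes, 30 principal components and 15 neighbours. Doublets were scored against 2 simulated doublets per barcode and kept in the main values. Median depth of DN barcodes was 3635 and 3797.5 UMIs. The scripts used Python 3.11.15, numpy 2.4.6, scipy 1.17.1, scikit-learn 1.9.0 and, for size factors, edgeR 4.0.16 and DESeq2 1.42.0, and were tested on simulated data. Alternatives changed 1 choice, or 2 listed together, at a time: thresholds of the rule, depth, normalization, the gene minimum, a pseudocount, doublets and other lineages.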

Additional observations from a re-analysis of the deposited data

How the results depend on the processing

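With 1 library per genotype, counting error is the limit on every value, and no spread between mice can be given. No paired analysis was possible because each group holds 1 library. Each value was judged once under every alternative that applied to it, so 1 value enters these counts several times. For the main values, 248 such results stayed within the counting interval or within 1.5 times a count, 61 moved and 1 reversed. For single-gene values, other list values and the shares of members in each library, 1531 stayed, 186 moved and 17 reversed. The causes of these moves were not tested, except where fewer genes or barcodes enter by construction.

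The reversals came from barcodes of other lineages, from thinning and, for Jchain, from the choice of CD8 barcodes. Without barcodes with a B or myeloid UMI, Jchain over CD8 barcodes was 1.62 (control) and 1.38 (CD4-Cre) on the log2 scale, Retnla CD4-Cre over control -0.68, the B list -1.74 (-0.64 also without 1 control barcode, an alternative chosen after the data were seen) and the myeloid list -0.20. In the same setting 77 genes were higher in the CD4-Cre library and Pou2af1 was at 0 CPM in both libraries. The share difference was -1.40 points, of kept totals that this setting lowered to 2490 and 4361 barcodes. Cytotoxic genes were at -0.98 over CD8 barcodes in the control, -2.37 (control) and -2.44 (CD4-Cre) over NK barcodes and -0.16 between genotypes. With each barcode thinned to 2000 UMIs before the rule, CD4-Cre over control ratios were -0.36 for Ccl6, 0.57 for Csf2 and -1.34 for Fn1. They were -0.92 for Lyz1, -0.017 for Pltp and -1.94 for Retnla. The control ratio of Jchain over CD8 barcodes was 2.40. For Apoe and Pld4 no control UMI was left, and the floor gave CD4-Cre over control ratios of at least -2.34 and -0.75. For Ccnb2 no control DN UMI was left, and the ratio over CD8 barcodes was at most 0.18. These bounds for Apoe, Pld4 and Ccnb2 were counted as reversed but do not show a change of direction. With the same thinning, genes higher and lower numbered 63 and 47 between genotypes, 40 and 40 over CD8 barcodes, and 76 were higher over NK barcodes. Cytotoxic genes were then at -0.67 over CD8 barcodes (CD4-Cre), -2.36 and -2.12 over NK barcodes and 0.033 between genotypes. Coreceptor UMIs were missing in 29.5% and 36.9%, Trbv was seen in 70.6% and 65.1%, the share difference was 0.119 points and control Pou2af1 was 0 CPM.

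With CD8 barcodes chosen by an innate sum of at least 4, Jchain was 0.48 in the CD4-Cre library and cytotoxic genes -0.71 and -0.65. Requiring an alpha-beta constant UMI and no gamma-delta UMI gave 0% with an NKT gene in the CD4-Cre library, Trbv in 91.4% and 90.7%, and cytotoxic genes at -1.005 (over CD8, control), -2.30 (over NK, control) and -0.11 (between genotypes). Thinning to 1000 UMIs gave 2.44% with an NKT gene in the CD4-Cre library. A threshold of 3 UMIs gave 118 CD4-Cre lymph node barcodes; a threshold of 6 gave 25 and 42, 145 genes higher in the CD4-Cre library, and cytotoxic genes at -0.80 (over CD8) and -2.43 (over NK) there. Cytotoxic genes over CD8 barcodes in the control were -0.93 with DESeq2 size factors, -0.97 with edgeR TMM, -0.96 with equal weight per barcode and -0.92 without the highest doublet scores, which also left control Pou2af1 at 0 CPM. Over NK barcodes they were -2.23 and -2.38 with DESeq2, -2.37 (CD4-Cre) with TMM, -2.35 (control) with equal weight, -2.35 and -2.63 with Tyrobp required in NK barcodes, and -2.02 and -2.39 above 3000 UMIs. A gene minimum of 10 UMIs gave 164 genes higher over CD8 and 217 over NK barcodes. A minimum of 50 gave 30 higher and 68 lower over CD8, 54 and 84 over NK, and 82 and 33 between genotypes. A pseudocount of 10 CPM gave 46 higher and 78 lower over CD8 and 66 lower between genotypes.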
